A study of Mus musculus with 32 samples.

Results

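Cdkn1a, Mdm2, Phlda3, Ccng1, Bax, Bbc3, Sesn1, Eda2r and Trp53inp1, all genes that the transcription factor p53 can activate, were examined together with the stress cytokine gene Gdf15 in mouse spinal cord. These 10 genes were chosen by name, with earlier results of these data known. All 10 have a row among the 42524 genes of the count table. Spinal cord RNA had been sequenced from 32 mice in 8 groups of 4. All were on a C57BL/6J background. Wildtype (WT) mice, and G93A mice that carry a human SOD1 transgene with an amyotrophic lateral sclerosis (ALS) mutation, were either untreated or given OKN-007, a nitrone compound, in the drinking water. Each combination was sampled at 90 and at 155 days by the labels, and the study's text gives a slightly later age than 90 days for the earlier time. The transgene is driven by the human SOD1 promoter in all tissues and has no row in the mouse table, so its level could not be read, and the methods for the sequenced samples do not name the dose of OKN-007. WT and G93A untreated mice address what the transgene changes, the treated groups address whether OKN-007 alters it, and the ages address when it appears.

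The protein p53 is held at a low level by MDM2, a ubiquitin ligase that marks it for degradation. DNA damage and other stresses stabilise p53, which then binds DNA as a tetramer at pairs of half-sites and activates genes for cell cycle arrest, apoptosis, metabolic control and its own restraint. Gdf15 encodes a secreted cytokine of the TGF-beta superfamily that is induced by p53 and by the integrated stress response, the translational stress pathway that acts through ATF4. Its receptor in the hindbrain is GFRAL.

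Promoter sequence is shown first, because it shows which of the genes carry the letters of a p53 half-site near their start. RefSeq windows of build GRCm38.p6, each 250 bases before and 50 bases after a start site, were found for 9 of the 10 genes, 14 windows in all. Trp53inp1 had no window. The p53 half-site consensus was searched on both strands. An exact match was present in 5 of the 14 windows and in 8.36% of all 32851 windows. The stretches with a match lie at chr17:29090866-29090977 on the plus strand, chr10:117710895-117710984 on the minus strand, chr11:40755422-40755511 on the minus strand, chr7:45467050-45467139 on the minus strand and chr10:41887226-41887315 on the plus strand. They are printed 5′ to 3′ in the direction of the gene, with 40 bases on each side of the matches where the window allows it, and capitals mark the exact half-sites.
Cdkn1a: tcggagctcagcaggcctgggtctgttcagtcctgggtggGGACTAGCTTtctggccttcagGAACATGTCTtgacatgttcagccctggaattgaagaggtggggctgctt
Mdm2: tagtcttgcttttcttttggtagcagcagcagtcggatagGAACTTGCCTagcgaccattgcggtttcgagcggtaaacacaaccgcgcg
Ccng1: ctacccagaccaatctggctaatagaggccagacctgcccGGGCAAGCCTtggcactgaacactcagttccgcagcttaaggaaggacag
Bax: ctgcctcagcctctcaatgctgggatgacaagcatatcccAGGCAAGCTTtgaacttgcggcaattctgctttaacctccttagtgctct
Sesn1: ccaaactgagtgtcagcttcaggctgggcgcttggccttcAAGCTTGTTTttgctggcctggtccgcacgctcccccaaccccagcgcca

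The Cdkn1a stretch held 2 exact half-sites, GGACTAGCTT starting 73 bases and GAACATGTCT starting 51 bases before the start site. The second was followed without a gap by a further half-site with 1 mismatch, tgacatgttc. This start site is the upstream one of 2 for Cdkn1a. The window at the other, 2790 bases downstream, held no half-site, also with 1 mismatch allowed. Cdkn1a was the only one of the 9 genes with a window that held a pair of half-sites of at most 1 mismatch no more than 13 bases apart, an arrangement found in 1.39% of all windows. The exact match started 186 bases before the start in Mdm2, 185 in Ccng1, 201 in Bax and 173 in Sesn1. In Sesn1 this was the downstream one of 2 start sites, and the window at the other held no match. With 1 mismatch allowed outside the 4 central bases, Bbc3 and Eda2r also held a match, but so did 39.6% of all windows. The letters TGATGNAA, a composite element bound by ATF4, were in none of the 14 windows and in 3.97% of all windows. The windows cover little of each locus, and no binding was measured.

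Gene counts summed to 19701722 to 30138257 per mouse, and 3 counts in the smallest library correspond to 0.152 CPM (counts scaled to library size). Motor neuron and caudal Hox genes were detected in every group, as fits spinal cord, but the libraries differed in their caudal Hox level. A caudal Hox score, the mean log2(CPM + 1) of 9 genes that mark lower cord, ran from 3.73 to 4.50 in untreated WT and from 1.62 to 3.57 in untreated G93A mice at 155 days, and from 4.31 to 4.52 and 2.401 to 3.63 in the treated groups. At 155 days the scores of WT and G93A mice did not overlap, untreated or treated. A difference in the position of the cord sample therefore cannot be told apart from genotype at that age, and a fit with the score as covariate does not separate them. The liver gene Alb reached 142.3 CPM in 1 untreated G93A mouse. Xist lay between 251 and 442 CPM in every mouse, and the study used mainly females. Values without the mice with the most Alb, or with the Hox score as a covariate, are given where they change a call.

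**Figure D1:**
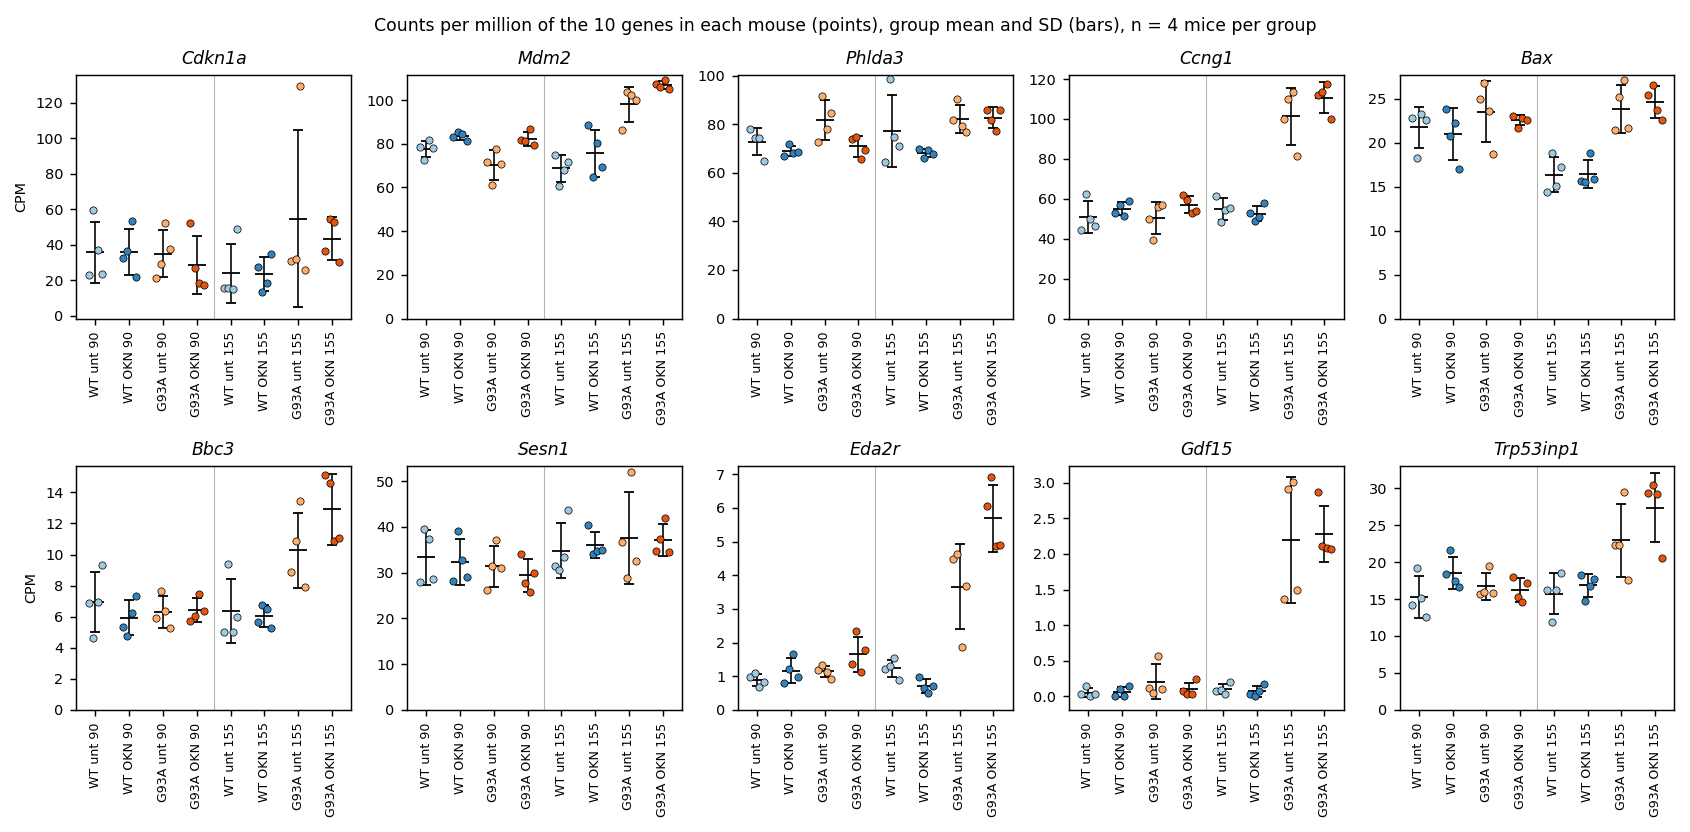
CPM (vertical axes, linear) of each of the 10 genes in every mouse, by group (unt, untreated; OKN, OKN-007; number, age in days). Points are mice and bars the group mean and SD of 4 mice. For Gdf15 all 8 G93A mice at 155 days lie above all other mice, while the Cdkn1a groups overlap and 1 untreated G93A mouse lies at 129.6 CPM.

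The genes differed widely in level. Per kilobase of exon (GENCODE M21 exons), Phlda3 was the highest of the 10 in untreated WT mice at 155 days, at 49.5 ± 9.57 CPM per kilobase (SD, n = 4). Ccng1 at 15.6 ± 1.55, Mdm2 at 13.5 ± 1.20, Bax at 10.4 ± 1.28, Sesn1 at 8.74 ± 1.53 and Cdkn1a at 6.72 ± 4.71 CPM per kilobase followed. Neighbours in this order lay within their spread except Phlda3 above Ccng1 and Mdm2 above Bax. Bbc3 at 2.99 ± 0.97 and Trp53inp1 at 2.43 ± 0.43 CPM per kilobase did not differ beyond their spread. Eda2r at 0.209 ± 0.045 and Gdf15 at 0.053 ± 0.038 CPM per kilobase were the lowest, and Gdf15 was close to the limit of detection.

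In untreated mice at 155 days, 8 of the 10 genes were higher in G93A than in WT mice by edgeR's quasi-likelihood test at an adjusted p under 0.05, and none was lower. Of the 18675 genes tested, 39.5% passed this test and 21.3% passed it with a higher level in G93A. Gdf15 rose most, followed by Eda2r, Cdkn1a and Ccng1. Phlda3 and Sesn1 did not pass the test. The median log2 fold change of the 10 genes was 0.64, against 0.00015 over all genes tested. For 5 of the genes every G93A mouse lay above every WT mouse, which held for 17.6% of all genes tested.

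Among the genes of cell cycle control, Ccng1, which encodes cyclin G1, gave 61.6, 48.2, 54.6 and 55.3 CPM in the WT mice and 99.8, 110.2, 113.4 and 81.6 CPM in the G93A mice. The groups did not overlap, and the difference was 1.86-fold (log2 fold change 0.89, SE 0.10, edgeR adjusted p = 1.35e-06). Cdkn1a, which encodes the cyclin-dependent kinase inhibitor p21, gave 15.9, 15.8, 14.9 and 49.0 CPM in WT and 31.2, 32.3, 129.6 and 25.9 CPM in G93A mice. In each group 1 mouse stood apart, and the high WT mouse lay above 3 of the 4 G93A mice. The log2 fold change of Cdkn1a was 1.23 (SE 0.47, edgeR adjusted p = 0.0471). This call was lost on leaving out any of 10 of the 16 mice, and without the G93A mouse at 129.6 CPM the log2 fold change was 0.32 (edgeR adjusted p = 0.529). It was also lost with DESeq2 (adjusted p = 0.0667), in a fit of only the 2 groups (edgeR adjusted p = 0.1001) and without the mice with the most Alb (edgeR adjusted p = 0.0584).

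Mdm2, the negative regulator of p53, gave 74.8, 60.7, 67.8 and 71.8 CPM in untreated WT mice and 86.4, 103.8, 102.4 and 100.1 CPM in untreated G93A mice at 155 days. The groups were separate, and G93A was 1.44-fold higher (log2 fold change 0.52, SE 0.090, edgeR adjusted p = 1.49e-04). Trp53, the gene of p53 itself, averaged 15.97 ± 1.42 CPM in WT and 26.0 ± 2.45 CPM in G93A mice (SD, n = 4; log2 fold change 0.72, edgeR adjusted p = 1.92e-05). Mdm4, which encodes the MDM2 partner that blocks p53 activity, averaged 63.1 ± 5.87 and 69.8 ± 3.66 CPM and did not pass the test (log2 fold change 0.16, edgeR adjusted p = 0.138).

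Both pro-apoptotic BCL2 family members rose. Bax, whose protein permeabilises the outer mitochondrial membrane, gave 14.4, 18.8, 15.1 and 17.2 CPM in WT and 21.5, 25.2, 27.1 and 21.7 CPM in G93A mice, with no overlap and a 1.47-fold difference (log2 fold change 0.56, SE 0.10, edgeR adjusted p = 2.63e-04). Bbc3, which encodes the BH3-only protein PUMA, gave 5.02, 9.37, 5.02 and 6.01 CPM in WT and 8.91, 10.8, 13.4 and 7.94 CPM in G93A mice. A single WT mouse overlapped the G93A range, and the difference was 1.64-fold (log2 fold change 0.72, SE 0.20, edgeR adjusted p = 0.00697).

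The genes linked to metabolism and autophagy were less uniform. Trp53inp1, which encodes a p53-induced protein involved in autophagy, gave 16.2, 11.9, 16.2 and 18.6 CPM in WT and 22.4, 22.3, 29.5 and 17.5 CPM in G93A mice. The lowest G93A mouse fell below the highest WT mouse, and the difference was 1.47-fold (log2 fold change 0.56, SE 0.16, edgeR adjusted p = 0.00793). Sesn1, which encodes the mTORC1 inhibitor sestrin 1, ranged from 30.5 to 43.8 CPM in WT and from 28.9 to 52.0 CPM in G93A mice, and its log2 fold change was 0.13 (95% interval -0.18 to 0.43). Phlda3, which encodes a competitor of AKT for membrane lipid, ranged from 64.3 to 98.6 and from 76.8 to 90.3 CPM, with a log2 fold change of 0.10 (95% interval -0.10 to 0.30).

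Gdf15 and the receptor gene Eda2r changed most among the genes whose groups were separate. Eda2r, which encodes a TNF receptor family member that binds the A2 form of ectodysplasin, gave 1.20, 1.29, 1.54 and 0.90 CPM in untreated WT and 4.47, 4.63, 1.86 and 3.69 CPM in untreated G93A mice. The lowest G93A value lay just above the highest WT value, and the difference was 2.99-fold (log2 fold change 1.58, SE 0.26, edgeR adjusted p = 8.61e-05). Gdf15 was counted 2, 2, 1 and 6 times in the WT libraries and 35, 71, 76 and 45 times in the G93A libraries. The summed CPM was 21.1 times higher in G93A mice (log2 fold change 4.39, SE 0.47, edgeR adjusted p = 5.32e-07), and the WT side of this ratio rests on 11 counts in all.

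Cell type markers moved with genotype in the same samples. All 10 microglia markers were higher in untreated G93A mice at 155 days, and their summed level ran from 385 to 484 CPM in WT and from 1800.2 to 3286 CPM in G93A mice. All 8 proliferation genes were higher (6.30 to 7.93 against 32.6 to 54.4 CPM), as were 7 of 8 astrocyte markers (4615 to 5211 against 14770.4 to 19249 CPM) and all 4 oligodendrocyte precursor markers (100.6 to 125.9 against 171.7 to 232.6 CPM). All 6 neuron markers (7186 to 8447 against 3633 to 5251 CPM) and 7 of 8 motor neuron markers (339 to 393 against 216 to 249 CPM) were lower. No marker of these lists was at 0 in every mouse of a group. Oligodendrocyte markers (21429 to 22731 against 20818 to 24125 CPM) and endothelial markers (176 to 212 against 176 to 213 CPM) had overlapping sums. Their part in the results for the p53 targets was not tested, and in bulk tissue fewer cells of a type and less RNA per cell cannot be told apart.

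**Figure D2:**
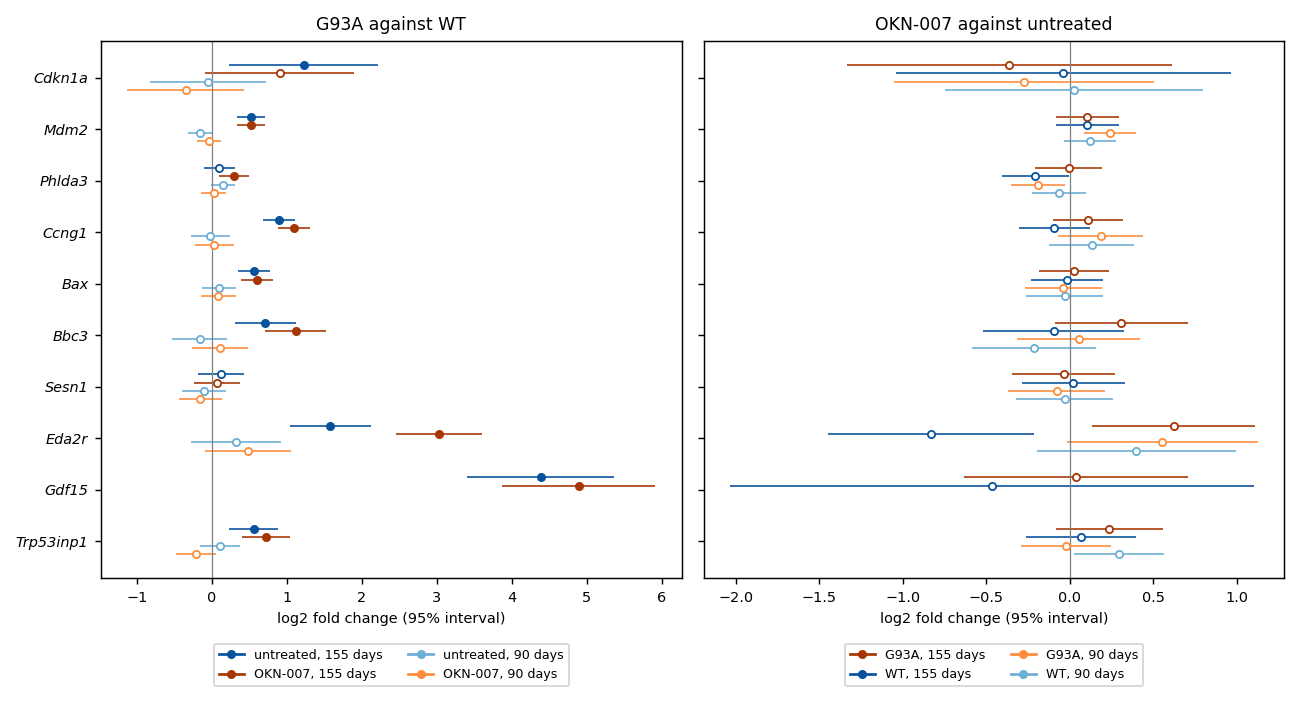
Log2 fold changes with 95% intervals (horizontal axes) of the 10 genes for G93A against WT (left) and OKN-007 against untreated (right), in 4 mice per group, with filled points for an adjusted p under 0.05. At 155 days 8 genes are filled for untreated and 8 for treated mice, none is filled at 90 days or for OKN-007, and Gdf15 was not tested at 90 days.

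Among OKN-007 treated mice at 155 days, again 8 of the 10 genes were higher in G93A than in WT mice and none was lower, where 41.5% of 18675 genes passed the test and 23.3% were higher. These were Mdm2, Phlda3, Ccng1, Bax, Bbc3, Eda2r, Gdf15 and Trp53inp1, and for all 8 the groups did not overlap, compared with 22.8% of all genes that were higher without overlap. This comparison uses other mice than the untreated one. The median log2 fold change of the 10 genes was 0.82, against 0.018 over all genes. Microglia markers again moved with genotype, with 10 of 10 higher and a summed level of 346 to 401 CPM in WT and 2212 to 2890 CPM in G93A mice, and so did the 8 proliferation genes (6.79 to 8.42 against 35.6 to 50.7 CPM). Higher too were 6 of 8 astrocyte markers (4502 to 4955 against 15721 to 19367.5 CPM) and all 4 oligodendrocyte precursor markers (114 to 124 against 195 to 226 CPM). All 6 neuron markers (7657 to 8090 against 3303 to 4793 CPM) and all 8 motor neuron markers (379 to 405 against 171 to 226 CPM) were lower. Their part in the result was not tested.

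Eda2r gave 0.98, 0.65, 0.49 and 0.70 CPM in the treated WT and 6.05, 6.93, 4.88 and 4.89 CPM in the treated G93A mice at 155 days. It was 8.18-fold higher in G93A mice (log2 fold change 3.03, SE 0.27, edgeR adjusted p = 4.83e-08). Gdf15 was counted 1, 0, 2 and 5 times in treated WT and 82, 57, 62 and 51 times in treated G93A libraries (log2 fold change 4.89, SE 0.49, edgeR adjusted p = 1.96e-07). The G93A counts were far above the WT counts in every library. Ccng1 ranged from 49.0 to 58.0 CPM in WT and from 99.8 to 117.6 CPM in G93A mice (log2 fold change 1.10, edgeR adjusted p = 8.53e-08). Bbc3 ranged from 5.25 to 6.74 and from 10.9 to 15.1 CPM (log2 fold change 1.12, edgeR adjusted p = 1.46e-04). Mdm2, Bax and Trp53inp1 had log2 fold changes of 0.52, 0.60 and 0.72. Phlda3 had the smallest change that passed, with a log2 fold change of 0.30 (edgeR adjusted p = 0.0176), and it failed to pass once the caudal Hox score was added to the model (edgeR adjusted p = 0.201) or without treated G93A replicate 13 (edgeR adjusted p = 0.0543).

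Cdkn1a gave 27.6, 13.6, 18.7 and 34.6 CPM in treated WT and 36.5, 54.4, 53.1 and 30.3 CPM in treated G93A mice. The groups overlapped and the log2 fold change of 0.91 (95% interval -0.09 to 1.90) did not pass the test (edgeR adjusted p = 0.136). Sesn1 had a log2 fold change of 0.07 (95% interval -0.24 to 0.37).

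At 90 days, 9 of the 10 genes were tested and none passed edgeR's quasi-likelihood test between G93A and WT mice, in untreated mice (0% of 18899 genes passed), in treated mice (0%) or with both treatments averaged (0.0265%). At an unadjusted p under 0.05 there was 1 gene in untreated mice, Mdm2, with a log2 fold change of -0.16 (edgeR unadjusted p = 0.0469), and 0 in the other comparisons, beside 5.96%, 3.95% and 6.61% of all genes. Eda2r had a log2 fold change of 0.40 with both treatments averaged (95% interval -0.01 to 0.81), with 0.97, 1.10, 0.67 and 0.83 CPM in untreated WT and 1.18, 1.32, 1.14 and 0.93 CPM in untreated G93A mice. These ranges overlapped. Gdf15 failed the filter on low counts at 90 days. It lay between 0 and 0.142 CPM in the untreated WT mice and at 0.12, 0.051, 0.57 and 0.0997 CPM in the untreated G93A mice, so that 1 mouse stood above the others.

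From 90 to 155 days, 6 of the 10 genes rose in untreated G93A mice (33.7% of 19829 genes passed, 21.0% were higher). Gdf15 had a log2 fold change of 3.41 (SE 0.57, edgeR adjusted p = 1.80e-05), with 227 counts at 155 days and 20 at 90 days over the 4 libraries of each age. Of these 20 counts, 13 came from replicate 11, without which the log2 fold change was 4.53. Eda2r (1.72), Ccng1 (1.03), Bbc3 (0.75), Mdm2 (0.51) and Trp53inp1 (0.49) also rose, with the log2 fold changes in parentheses. The call of Trp53inp1 was lost without untreated G93A replicate 10 at 90 days or replicate 11 at 155 days (largest edgeR adjusted p = 0.0931). Cell type markers moved over the same interval. All 10 microglia markers (440 to 789 CPM summed at 90 days, 1800.2 to 3286 CPM at 155 days) and 7 of 8 proliferation genes (10.1 to 15.7 against 32.6 to 54.4 CPM) were higher at 155 days. So were 6 of 8 astrocyte markers, with 1 lower (6354 to 9052 against 14770.4 to 19249 CPM), and all 4 oligodendrocyte precursor markers (136 to 167 against 171.7 to 232.6 CPM). Lower at 155 days were 5 of 6 oligodendrocyte markers (30158 to 36230.0 against 20818 to 24125 CPM) and 5 of 8 motor neuron markers (260.2 to 441 against 216 to 249 CPM). Of 6 neuron markers, 3 were lower (5276 to 7656 against 3633 to 5251 CPM). Their part in the result was not tested.

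In untreated WT mice over the same interval, 1 of the 10 genes passed the test, where 24.9% of all genes did and 9.61% were lower. Bax fell by 0.39 on the log2 scale (SE 0.11, edgeR adjusted p = 0.00755), from 22.8, 18.3, 23.3 and 22.6 CPM at 90 days to 14.4, 18.8, 15.1 and 17.2 CPM at 155 days. The ranges overlapped through 1 mouse of each age. Without the mice with the most Alb the Bax call was lost (edgeR adjusted p = 0.0955). In the same WT libraries all 6 oligodendrocyte markers were lower at 155 days (31142 to 39337 CPM summed at 90 days, 21429 to 22731 CPM at 155 days), as were 3 of 8 astrocyte markers, with 1 higher (6301 to 7377 against 4615 to 5211 CPM). Their part in the Bax result was not tested. In G93A mice Bax averaged 23.5 ± 3.44 CPM at 90 days and 23.9 ± 2.75 CPM at 155 days (SD, n = 4), a log2 fold change of 0.06 (95% interval -0.15 to 0.27). The genotype difference of Bax at 155 days thus came with a lower WT level than at 90 days. The 2 ages cannot be told apart from any difference in when their libraries were made, for which the labels give no batch.

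The change of the G93A against WT difference between the ages was tested directly and passed for 5 of the 10 genes, all higher at 155 days (21.2% of genes passed, 12.9% were higher). The difference in log2 fold change was 0.67 for Mdm2 (edgeR adjusted p = 1.01e-04), 0.90 for Ccng1 (2.46e-04), 1.25 for Eda2r (0.0200), 0.86 for Bbc3 (0.0216) and 0.45 for Bax (0.0291). For Gdf15 it was 2.61 (95% interval 0.10 to 5.13, edgeR adjusted p = 0.133) and for Cdkn1a 1.27 (edgeR adjusted p = 0.174). Without 1 of 4 of the 155-day mice (untreated WT replicates 1 and 3, untreated G93A replicates 10 and 11), 3 genes passed. The Bax call was lost in 7 of the 32 fits with 1 mouse left out (largest edgeR adjusted p = 0.0858), 3 of them without a 90-day mouse (untreated WT replicates 1 and 3, untreated G93A replicate 12). The Bbc3 call was lost in 4 fits (largest edgeR adjusted p = 0.0716), 1 of them without untreated WT replicate 4 at 90 days, and the Eda2r call in 1, without untreated G93A replicate 10 at 155 days (edgeR adjusted p = 0.0520). Mdm2 and Ccng1 passed in all 32 fits.

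None of the 10 genes passed edgeR's quasi-likelihood test for OKN-007, and 0% of all genes passed in each comparison of treated with untreated mice. These comparisons share their mice with the genotype comparisons above. In G93A mice at 155 days, 1 of the 10 genes had an unadjusted p under 0.05, beside 4.04% of all genes. This was Eda2r, at 4.47, 4.63, 1.86 and 3.69 CPM untreated and 6.05, 6.93, 4.88 and 4.89 CPM treated (log2 fold change 0.62, SE 0.23, edgeR unadjusted p = 0.0154, adjusted p = 0.9996). By CPM, which leave out the scaling factors (TMM) that the test uses, every treated mouse lay above every untreated one for Eda2r and for Mdm2. This held for 2.63% of all genes. The Mdm2 values were 86.4 to 103.8 CPM untreated and 105.1 to 109.3 CPM treated, and the log2 fold change was 0.10 (95% interval -0.08 to 0.29). The library at 103.8 CPM had a TMM factor of 0.995 and the one at 105.1 CPM a factor of 1.015. With these factors applied the Mdm2 ranges overlap. For Gdf15 the 95% interval of the treatment effect ran from -0.63 to 0.71, for Ccng1 from -0.10 to 0.32 and for Cdkn1a from -1.33 to 0.61 on the log2 scale.

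In WT mice at 155 days, Eda2r went from 1.20, 1.29, 1.54 and 0.90 CPM untreated to 0.98, 0.65, 0.49 and 0.70 CPM treated, with 1 overlapping pair of values (log2 fold change -0.83, SE 0.30, edgeR unadjusted p = 0.0112, adjusted p = 1). Phlda3 had a log2 fold change of -0.21 (edgeR unadjusted p = 0.0456), so that 2 of the 10 genes had an unadjusted p under 0.05, beside 2.94% of all genes. The genotype by treatment interaction for Eda2r at 155 days was 1.45 on the log2 scale (95% interval 0.66 to 2.24, edgeR unadjusted p = 0.00108, adjusted p = 0.9998). It was the 1 gene of the 10 with an unadjusted p under 0.05 for this interaction, which 2.34% of all genes had, and 0 passed after adjustment.

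At 90 days, Mdm2 in G93A mice was 71.6, 61.2, 77.8 and 70.7 CPM untreated and 81.6, 81.3, 86.9 and 79.3 CPM treated, without overlap (1.30% of genes were higher without overlap). Its log2 fold change was 0.24 (SE 0.074, edgeR unadjusted p = 0.00426, adjusted p = 0.837). Phlda3 in G93A (log2 fold change -0.19, edgeR unadjusted p = 0.0249) and Trp53inp1 in WT mice (0.29, edgeR unadjusted p = 0.0350) were the other 90-day values with an unadjusted p under 0.05, which 5.56% and 4.07% of all genes had. The interaction at 90 days gave 0 genes of the 10 at an unadjusted p under 0.05 by edgeR's quasi-likelihood test, where 2.81% of all genes had one.

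**Figure D3:**
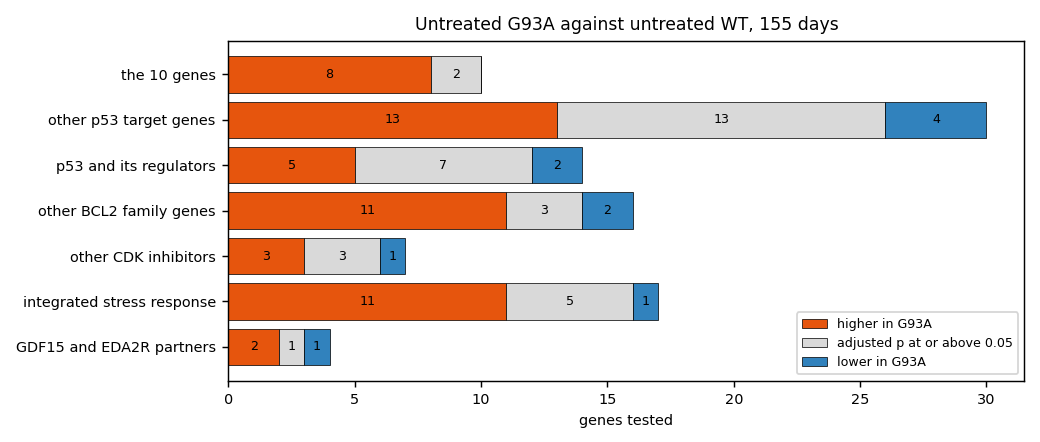
Number of genes tested (horizontal axis) that were higher, lower or not past an adjusted p of 0.05 in untreated G93A against untreated WT mice at 155 days, for the 10 genes and 6 related lists. Of 30 other p53 target genes 13 were higher and 4 lower, and of 17 integrated stress response genes 11 were higher and 1 lower. Of all genes tested, 21.3% were higher and 18.2% lower.

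Related genes were read from lists set beside the 10. These lists too were written with earlier results of these data known, so their counts beside the shares of all genes are descriptions only. Of 30 other p53 target genes tested in untreated mice at 155 days, 13 were higher in G93A mice, 4 were lower and 13 did not pass the test, where 21.3% of all genes were higher and 18.2% lower. Their median log2 fold change was 0.33. The largest changes were in Psrc1 (3.39), a microtubule-associated protein gene of mitosis, Fas (2.19) and Tnfrsf10b (1.85), both death receptor genes, and Ckap2 (1.80), a spindle protein gene. The 4 lower genes, named after their values were seen, were Tigar (-0.41), Trp53i11 (-0.32), Zmat3 (-0.30) and Rrm2b (-0.28).

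Of 14 genes for p53 and its regulators, 5 were higher and 2 lower, where 21.3% of all genes were higher and 18.2% lower. The higher ones included Cdkn2a (3.03), whose ARF product inhibits MDM2, the checkpoint kinase gene Chek2 (0.53) and the p53 relative Trp63 (0.53). The 2 lower genes, named after their values were seen, were Trp53bp1 (-0.34) and Usp7 (-0.20). Of 7 other cyclin-dependent kinase inhibitor genes, which again include Cdkn2a, 3 were higher and 1 was lower, beside the same shares of all genes. Cdkn2c (2.11) and Cdkn2b (0.97) rose, and Cdkn1c fell by 0.50 on the log2 scale. Cdkn2a remained a low gene, at 0.118 ± 0.085 CPM in WT and 1.01 ± 0.22 CPM in G93A mice (SD, n = 4).

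Of 16 other BCL2 family genes, 11 were higher and 2 lower, where 21.3% of all genes were higher and 18.2% lower. Pmaip1 (0.85) is counted both here and among the other p53 target genes. The largest changes were in Bcl2a1d (4.83), Bcl2a1a (3.62) and Bcl2a1b (2.17), anti-apoptotic genes of near-identical sequence whose separate counts are uncertain, and in the BH3-only gene Bik (2.12). Both anti-apoptotic and pro-apoptotic genes were thus among those that rose.

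The integrated stress response genes are of interest beside Gdf15. Of 17, 11 were higher and 1 was lower, with a median log2 fold change of 0.36, where 21.3% of all genes were higher and 18.2% lower. Sesn2 (0.32) is counted both here and among the other p53 target genes. Atf4, the central transcription factor, averaged 126.0 ± 9.42 CPM in WT and 155.5 ± 8.59 CPM in G93A mice (SD, n = 4; log2 fold change 0.32). Ddit3, which encodes the factor CHOP, averaged 33.7 ± 1.69 and 75.8 ± 9.11 CPM (log2 fold change 1.18). Nupr1 (4.45) and Atf3 (4.38), both stress-induced regulators, Trib3 (2.47), a pseudokinase gene, and Eif4ebp1 (2.19), a translation repressor gene, changed most. The lower gene, named after its value was seen, was Asns (-0.33). The 5 that did not pass were Mthfd2, Phgdh, Psat1, Slc7a11 and Vldlr.

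Of the ligand and receptor partners of GDF15 and EDA2R, 4 of 7 were tested. Eda, the ectodysplasin gene, averaged 2.34 ± 0.60 CPM in WT and 3.54 ± 1.21 CPM in G93A mice (log2 fold change 0.61, edgeR adjusted p = 0.0484), and the counts do not separate its A1 and A2 forms. Furin, a protease gene, had a log2 fold change of 0.46 and Ret, the GFRAL co-receptor gene, one of -0.33, and both passed the test. Ret is also counted among the motor neuron markers above, most of which were lower. Gfral failed the filter on low counts and averaged at most 0.010 CPM in any 155-day group. In treated G93A against treated WT mice, 15 of the 30 other p53 targets were higher and 4 lower, and 11 of the 17 integrated stress response genes were higher and 1 lower. Of all genes tested in that comparison, 23.3% were higher and 18.2% lower. No gene of these lists passed for OKN-007 in G93A mice at 155 days, where 0% of all genes did by edgeR's quasi-likelihood test. Of the 85 genes tested in them, 4 had an unadjusted p under 0.05, beside 4.04% of all genes.

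**Figure D4:**
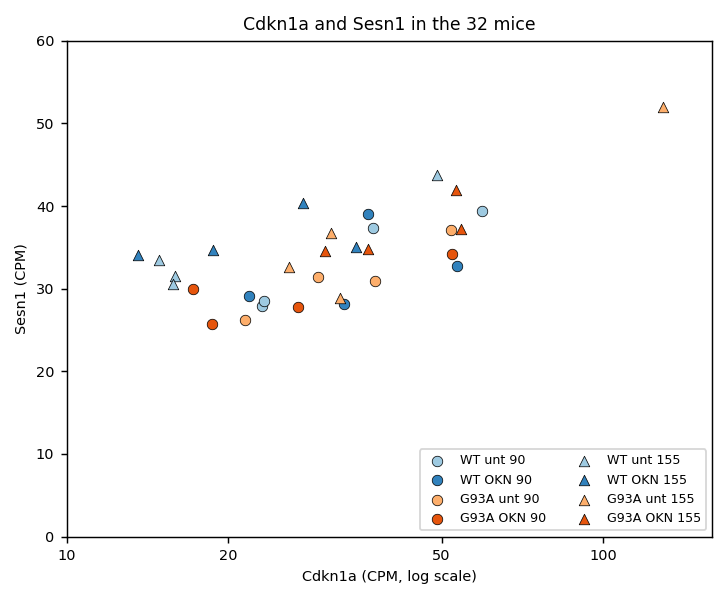
Cdkn1a (horizontal axis, CPM on a log scale) against Sesn1 (vertical axis, CPM) in each of the 32 mice, coloured by group (circles 90 days, triangles 155 days). Mice with more Cdkn1a tended to have more Sesn1, and the untreated G93A mouse at 129.6 CPM Cdkn1a also had the highest Sesn1 level, 52.0 CPM. On log2(CPM + 1) values the correlation was 0.67 over the 32 mice, and 0.82 with the group means removed, which is not drawn.

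Within groups the 10 genes did not vary as a unit. On log2(CPM + 1) values with the group means removed, over 32 libraries, the correlation was 0.82 between Cdkn1a and Sesn1, 0.74 between Sesn1 and Trp53inp1 and 0.73 between Cdkn1a and Trp53inp1. The mouse with the most Cdkn1a was untreated G93A replicate 11 at 155 days. It had the highest levels of its group for Sesn1 (52.0 CPM), Trp53inp1 (29.5 CPM), Ccng1 (113.4 CPM), Bax (27.1 CPM), Bbc3 (13.4 CPM) and Gdf15 (3.01 CPM). Its Eda2r level, 1.86 CPM, was the lowest of the group, and for Mdm2 and Phlda3 it was neither highest nor lowest. Ccng1 correlated with Trp53inp1 at 0.68, with Cdkn1a at 0.54 and with Gdf15 at 0.52, and Gdf15 with Trp53inp1 at 0.53. Bax and Bbc3 correlated at 0.56 and Bax and Ccng1 at -0.38. The correlation of Cdkn1a with Mdm2 was 0.23 and with Eda2r -0.29. These values are descriptions, and the points share library depth and the position of the cord sample.

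Over the 32 libraries and 19828 other genes, the genes whose log2(CPM + 1) pattern was most like that of Cdkn1a were Rtkn (Pearson r 0.94), Plin4 (0.93), Map3k6 (0.92), Smox (0.91) and Fam83d (0.90). With the group means removed their correlations with Cdkn1a were between 0.89 and 0.96. Among the genes most like Gdf15 were Klrb1b (0.99), Milr1 (0.98), Crym (0.98) and Prkcd (0.98), with correlations between 0.75 and 0.82 once the group means were removed. None of these 9 genes is among the p53 targets listed above.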

How the data were processed

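Spinal cord RNA of 32 mice (TruSeq Stranded mRNA libraries, 4 mice in each of 8 groups by genotype, treatment and age) was analysed from the raw read counts per gene that the authors deposited, which are not normalized. The submitters' processing notes name FastQC, STAR, featureCounts and edgeR with mouse build GRCm39, whereas the study's methods name Trimmomatic, STAR, HTSeq and an earlier GENCODE annotation. The table holds 1306 gene IDs numbered above the highest of GENCODE M21, so the annotation is a later one, and no gene coordinates are given other than those of the RefSeq windows. Symbols were paired for 41203 of 42524 IDs.

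CPM were computed from library totals. Groups were compared in R 4.3.3 with edgeR 4.0.16 (limma 3.58.1 loaded) by TMM scaling, filterByExpr and the two-sided quasi-likelihood test. The 16 mice of an age were fitted as 4 groups, and all 32 mice for the age comparisons, with Benjamini-Hochberg adjustment over all genes tested. SEs come from the F statistic. The procedure was tested on simulated data. No 2 libraries of a group held identical values (smallest chi-square per gene 3.80), and intervals and limits of detection cover counting error and the spread between these mice only.

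The 10 genes and all lists were chosen with earlier results of these data known. The named genes are the 10, Trp53, Mdm4, Atf4, Ddit3, Gfral and Eda, up to 4 genes per related list with the largest change among those that passed in untreated mice at 155 days, and the 5 genes most like Cdkn1a and Gdf15, of which 1 is not reported here. Other lists counted were markers of microglia, astrocytes, neurons, motor neurons and oligodendrocyte precursors, proliferation genes and caudal Hox genes, given beside the results, and disease-associated microglia (10 of 10 higher in untreated G93A mice at 155 days), oligodendrocyte (1 of 6 higher), endothelial (0 of 5 by edgeR, 2 at an unadjusted p under 0.05) and liver genes (0 of 5 tested by edgeR, 1 at an unadjusted p under 0.05). Some list genes that were lower or did not pass are named too, after their values were seen. Of 15 listed p53 regulators, 14 were found by symbol. Exon lengths were those of GENCODE M21.

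Alternatives were DESeq2 1.42.0, RLE factors, no filter, a looser threshold (adjusted p under 0.10), a minimum fold change of 1 on the log2 scale, other sets of mice in the fit, the Hox score as covariate, a block for the sample number, leaving out the mouse with the most Alb in each group where it was over 10 CPM, and leaving out each mouse.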

Additional observations from a re-analysis of the deposited data

Results flagged for a closer look

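Of 80 sets of 4 mice (10 genes in 8 groups), 9 held a mouse far from the other 3 by Dixon's test, where chance gives about 4. Cdkn1a was at 49.0 CPM in untreated WT replicate 4 at 155 days (next 15.9 CPM) and at 129.6 CPM in untreated G93A replicate 11 at 155 days (next 32.3 CPM). Untreated G93A replicate 11 at 90 days, a different mouse, stood apart for Gdf15 at 0.568 CPM (next 0.118 CPM) and for Trp53inp1 at 19.4 CPM (next 15.9 CPM). Bax was low in untreated WT replicate 2 at 90 days (18.3 CPM, next 22.6 CPM) and high in OKN-007 treated WT replicate 7 at 155 days (18.9 CPM, next 15.9 CPM). Sesn1 was at 40.4 CPM in treated WT replicate 5 at 155 days (next 35.0 CPM). Among treated G93A mice at 155 days, replicate 13 stood apart for Gdf15 (2.87 CPM, next 2.11 CPM) and replicate 16 for Trp53inp1 (20.5 CPM, next 29.3 CPM).

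The difference between untreated G93A and WT mice changed between 90 and 155 days for 5 genes, by a test of that change with edgeR. On the log2 scale the change was 0.668 for Mdm2, 0.903 for Ccng1, 0.451 for Bax, 0.859 for Bbc3 and 1.25 for Eda2r. With 1 of the 32 mice left out in turn, the call was lost in 7 fits for Bax, in 4 for Bbc3 and in 1 for Eda2r, and in 0 for Mdm2 and Ccng1.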

How the results depend on the processing

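The number of the 10 genes that passed stayed within 1.5 times its value under 118 of 125 alternative settings. This tally includes comparisons in which 0 genes had passed, where a 0 that stayed 0 counted as unchanged. Fold changes were followed for single genes with an unadjusted p under 0.05 in the main fit. None turned its sign under 339 settings or 800 fits with 1 mouse left out. The looser threshold and the minimum fold change reuse the main fold change, so no sign could turn there. A single gene's call was lost in 28 of the 339 settings and in 25 of the 800 fits, and gained in 1 of each. Where the number of genes that passed moved, the alternative was as follows. With a log2 fold change of at least 1 required, 3 genes passed for untreated and 4 for treated G93A against WT at 155 days, 0 for age in WT, 3 for age in G93A and 1 for the change of the genotype difference between ages, because smaller changes are left out by construction. Without the mice with the most Alb, 0 genes passed for age in WT mice. With only untreated mice in the fit, 3 genes passed for the change between ages. The cause of these last differences was not tested. Leaving out each mouse gave 7 to 8 genes for untreated and 7 to 9 for treated G93A against WT at 155 days, 1 for age in WT, 5 to 6 for age in G93A and 3 to 6 for the change between ages, and 0 in every OKN-007 comparison, interaction and 90-day comparison.

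Sample numbers are shared between the ages. Same-numbered mice deviated together in 3 of 16 pairs (correlation over 0.1, range -0.22 to 0.26), and they are different mice, so the numbers were not taken as pairs. With the replicate block, 1 gene passed for age in WT, 6 for age in G93A and 5 for the change between ages, as without it.

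Other scaling moved the median of all genes by less than 0.1 on the log2 scale, and all 10 log2 fold changes stayed above 0 in both 155-day genotype comparisons with TMM, RLE or no scaling factors. The Gdf15 change between ages ranged from 1.59 to 3.73 with 1 mouse left out, and passed in 1 of those 32 fits (lowest edgeR adjusted p = 0.0284). Depth limits Gdf15 most, with at most 6 counts in any WT library at 155 days, and 4 mice per group limit how small a treatment effect could pass.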
